A study of Mus musculus with 16 samples.

Results

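The 10 genes described here encode receptors that restrain or costimulate T cells, a nuclear factor of exhausted T cells, and the ligands of one of the receptors. They are Pdcd1, Ctla4, Tigit, Lag3, Havcr2, Btla, Icos, Tox, Cd274 and Pdcd1lg2, and were taken by name from the 55573 genes of the count table through their Ensembl identifiers. All 10 were among the 20822 genes that passed the filter on low counts. RNA was sequenced from eWAT, the epididymal white fat depot, of 16 male db/db mice on the C57BLKS/J background, which carry a leptin receptor mutation in every group and were fed standard chow. At 4 weeks of age the mice had received AAV8-eGFP (the eGFP group, the control) or AAV8-LRG1-FL (the LRG1 group), and tissue was taken at week 7 or week 10 of age, from 4 mice per group and week. AAV8-LRG1-FL carries LRG1, a secreted leucine-rich glycoprotein, with a FLAG tag at its C terminus, and both viruses carry the broadly active CB7 promoter and were injected retro-orbitally, so the vector itself does not limit expression to fat. Each cage of 4 mice was assigned to one virus and the cage of each mouse was not given in the sources used here, so cage and virus cannot be told apart. The AAV work of the study used several db/db cohorts, and the cohort of each mouse was not given either. The weeks are separate mice, so differences between weeks cannot be told apart from differences between cohorts.

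T cells that meet antigen without end, as in tumours and chronic infection, raise inhibitory receptors at their surface and enter a state called exhaustion, in which they make less cytokine and kill less. PD-1, the product of Pdcd1, is the best known of these receptors, and its ligands PD-L1 and PD-L2, the products of Cd274 and Pdcd1lg2, are displayed by macrophages, dendritic cells and, for PD-L1, many other cells exposed to interferon-gamma. Most of these receptors are also raised for a time on any activated T cell, some are used by regulatory T cells, natural killer cells, B cells or macrophages, and obese visceral fat is known to gather T cells and macrophages.

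The members lie on 6 chromosomes of GRCm38. Pdcd1 is at chr1:94038305-94052553, Ctla4 at chr1:60887000-60915832, Icos at chr1:60977927-61000320, Tox at chr4:6686353-6991557, Lag3 at chr6:124904361-124911705 and Havcr2 at chr11:46454935-46481255. Tigit is at chr16:43648867-43664146, Btla at chr16:45224315-45257670, Cd274 at chr19:29367455-29388095 and Pdcd1lg2 at chr19:29410919-29471161. Ctla4 and Icos are neighbours 62094 bases apart, and Cd274 and Pdcd1lg2 neighbours 22823 bases apart, with no other protein-coding gene between them in either pair. The annotation places an antisense gene over Tox, Cd274 and Pdcd1lg2, and the strand setting of the counting was not given, so reads of those antisense genes cannot be told apart from those of the members. A pseudogene lies within Ctla4 and a transcript of uncertain status within Icos, on the same strand, and their reads are uncertain likewise.

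The stretch of 250 bases before the start of the gene is shown for a receptor whose transcript was lower in the LRG1 group by the most, for its main ligand, and for the only member in which a searched motif was found. RefSeq (GRCm38.p6) held this stretch for 7 of the 10 members, all but Tox, Lag3 and Icos. Each was searched on both strands for TTCNNNGAA (the interferon-gamma activated site), the interferon regulatory factor part of the interferon-stimulated response element and TGANTCA (the AP-1 site). The start is that of RefSeq, which can differ from the gene coordinates given above. The Ctla4 stretch, at chr1:60908775-60909024, lies inside the gene span given above. That of Btla, at chr16:45224087-45224336, runs past the gene start given above. Capitals mark a match, and the stretches are at chr1:94052554-94052803 on the minus strand for Pdcd1, chr19:29367188-29367437 on the plus strand for Cd274 and chr11:46454681-46454930 on the plus strand for Havcr2.
Pdcd1: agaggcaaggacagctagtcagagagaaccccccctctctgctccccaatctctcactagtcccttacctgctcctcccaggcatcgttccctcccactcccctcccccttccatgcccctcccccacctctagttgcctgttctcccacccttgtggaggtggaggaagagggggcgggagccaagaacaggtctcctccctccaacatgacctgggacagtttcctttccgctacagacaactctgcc
Cd274: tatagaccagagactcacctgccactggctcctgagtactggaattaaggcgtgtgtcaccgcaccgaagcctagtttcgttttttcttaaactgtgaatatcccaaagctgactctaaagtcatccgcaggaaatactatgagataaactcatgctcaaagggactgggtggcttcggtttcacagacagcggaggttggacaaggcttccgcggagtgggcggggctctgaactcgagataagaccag
Havcr2: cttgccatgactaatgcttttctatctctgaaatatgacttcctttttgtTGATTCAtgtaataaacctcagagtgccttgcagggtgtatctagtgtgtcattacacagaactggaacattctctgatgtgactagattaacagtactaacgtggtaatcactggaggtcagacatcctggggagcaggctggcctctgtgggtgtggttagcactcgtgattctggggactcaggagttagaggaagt
Havcr2 held 1 match, TGATTCA, whose first base is at -200 from the start. The other 6 stretches held none of the letters searched, which says nothing about sites elsewhere. Over all 32851 mouse promoter stretches of the same length, TTCNNNGAA was present in 7.02%, the interferon regulatory factor motif in 2.98% and TGANTCA in 6.75%.

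The libraries held 45376227 to 67539937 counts. Lrg1, the gene that the virus carries, ranged from 86.2 to 115 CPM over the 8 eGFP mice and from 286 to 624 CPM over the 8 LRG1 mice. CPM, the unit used throughout, is a count scaled by library size after TMM adjustment. Every library thus matched the virus of its label. Lrg1 overlapped between the weeks in either group, so it does not check the week of a label. Mitochondrial ribosomal RNA took 24.1% to 25.8% of the counts in eGFP mice and 27.1% to 30.4% in LRG1 mice at week 7. Without mitochondrial genes the same numbers of members were called in each comparison. Adipocyte genes were abundant in every library (10 markers, summed level 8128 to 19921 CPM). The 10 markers of epididymis and testis, which border the depot, summed to at most 1.41 CPM.

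At week 7, 9 of the 10 genes were lower with LRG1 than with eGFP, and 1, Btla, did not pass the test (edgeR's quasi-likelihood test, Benjamini-Hochberg adjusted p below 0.01, n = 4 mice per group). Of all 20822 genes tested, 10.7% were called lower. In the same 9 genes every LRG1 library lay below every eGFP library, as in 19.4% of all genes. The median log2 fold change of the 10 genes was -2.13, beside 0.01 over all genes. Pdcd1 and Tox were 75.9-fold and 32.3-fold lower, and the other 7 called genes between 2.11-fold (Lag3) and 7.03-fold (Ctla4) lower. At week 10, 3 genes were lower, namely Pdcd1, Havcr2 and Tox, and 7 did not pass, beside 5.24% of all genes called lower. Those 3 were also the members without overlap between the groups (10.1% of all genes), and the median log2 fold change was -0.87, beside 0.00 over all genes. In a fit of the 8 libraries of week 10 alone none of the 3 passed, with an adjusted p of 0.0306 for Pdcd1, 0.0366 for Havcr2 and 0.0106 for Tox (12 of all genes were called), and Tox also missed with limma-voom (adjusted p = 0.0117). Without eGFP mice 1 and 3 of week 10, which stood apart in their macrophage and mast cell markers and were chosen after seeing the data, the count was again 3, beside 0.338% of all genes called lower.

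**Figure D1:**
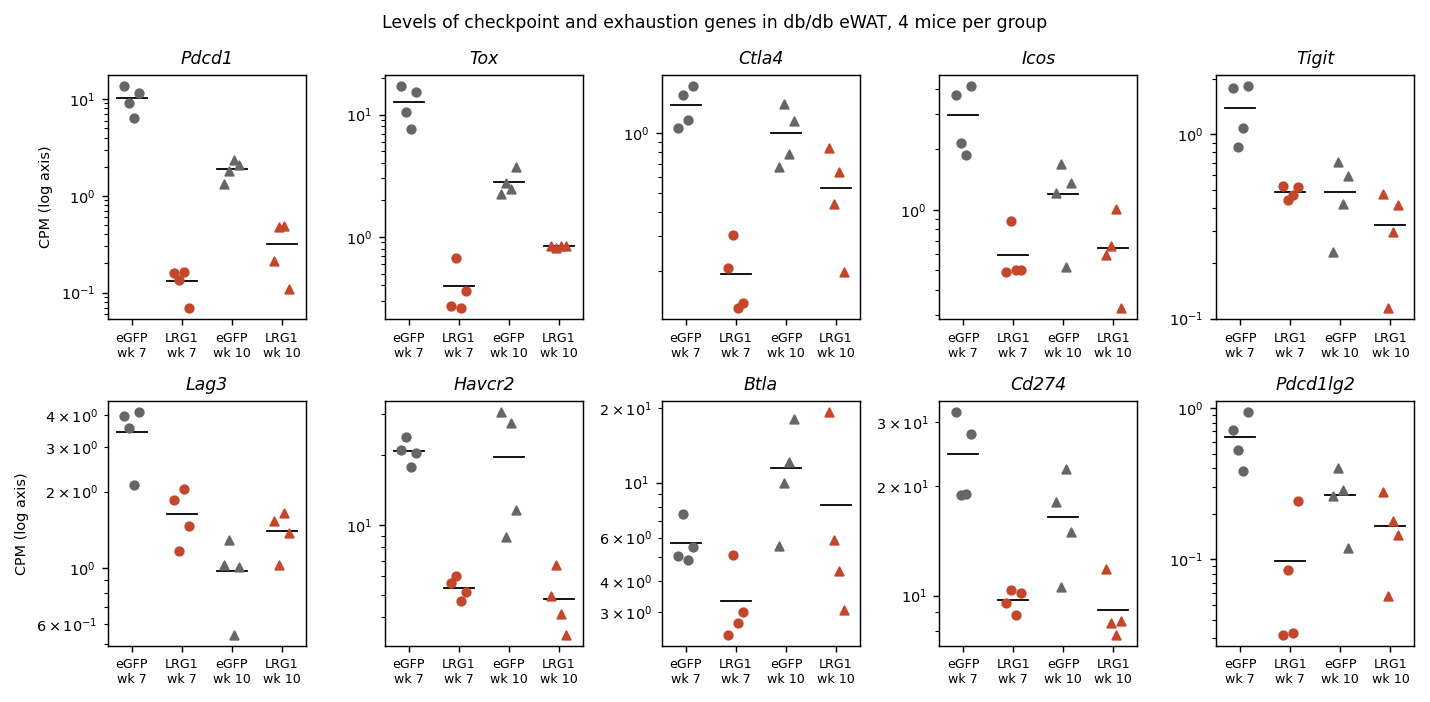
Level of each gene in every library in CPM (log axis, one panel per gene), with circles for week 7, triangles for week 10, grey for eGFP, red for LRG1 and a line at the group mean. In Pdcd1 and Tox the eGFP mice of week 7 stand above all others. In Tox the LRG1 mice of week 7 lie below all others, in Pdcd1 they overlap with those of week 10, and Btla overlaps between the groups at both weeks.

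Pdcd1 encodes PD-1, an inhibitory receptor that recruits phosphatases to the T cell receptor. At week 7 it was at 13.8, 9.05, 6.40 and 11.6 CPM in the 4 eGFP mice (453 to 869 counts). In the LRG1 mice of that week it was at 0.159, 0.135, 0.162 and 0.0689 CPM (4 to 10 counts). The groups were far apart, and the LRG1 level rested on few counts per library. The log2 fold change was -6.25 (SE 0.41, adjusted p = 6.65e-08), and only 0.072% of all genes had a lower one. At week 10 Pdcd1 was at 1.33, 1.81, 2.34 and 2.07 CPM in eGFP mice and at 0.210, 0.474, 0.490 and 0.108 CPM in LRG1 mice. The groups again did not overlap, and the log2 fold change was -2.54 (SE 0.36, adjusted p = 0.00104).

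Ctla4 encodes a receptor that competes with CD28 for the ligands CD80 and CD86 and is carried constantly by regulatory T cells. It was at 1.06, 1.55, 1.17 and 1.74 CPM in the eGFP mice of week 7 and at 0.207, 0.304, 0.130 and 0.138 CPM in the LRG1 mice, with a log2 fold change of -2.81 (SE 0.40, adjusted p = 1.29e-04). At week 10 the groups overlapped, with 0.675 to 1.41 CPM in eGFP mice and 0.198 to 0.839 CPM in LRG1 mice (log2 fold change -0.92, SE 0.37, adjusted p = 0.0831).

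Tigit encodes an inhibitory receptor of T and natural killer cells for poliovirus receptor family proteins. It was at 1.79, 0.854, 1.09 and 1.84 CPM in eGFP mice and at 0.525, 0.439, 0.471 and 0.517 CPM in LRG1 mice at week 7, without overlap (log2 fold change -1.51, SE 0.38, adjusted p = 0.00657). At week 10 both groups were low and overlapped, at 0.230 to 0.705 CPM and 0.114 to 0.472 CPM (log2 fold change -0.58, SE 0.40, adjusted p = 0.321). Leaving out any 1 of 6 week 7 libraries (eGFP replicates 1 and 4, and each LRG1 replicate) ended the week 7 call of Tigit, with an adjusted p of at most 0.0241.

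Lag3 encodes a receptor that binds MHC class II and restrains T cells. Its week 7 levels were 3.99, 3.56, 2.12 and 4.12 CPM in eGFP mice and 1.85, 1.16, 2.05 and 1.46 CPM in LRG1 mice, so that the lowest eGFP mouse was just above the highest LRG1 mouse. The log2 fold change was -1.08 (SE 0.26, adjusted p = 0.00556). Leaving out any 1 of 6 week 7 libraries (replicates 1, 2 and 4 of either group) ended this call, with an adjusted p of at most 0.0197. At week 10 Lag3 was the only member with a higher mean in the LRG1 group, at 1.03, 1.29, 0.546 and 1.01 CPM in eGFP mice and at 1.54, 1.02, 1.65 and 1.37 CPM in LRG1 mice. The groups overlapped and the difference did not pass the test (log2 fold change 0.51, SE 0.27, adjusted p = 0.189).

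Havcr2 encodes TIM-3, which marks exhausted T cells and is also carried by macrophages, dendritic cells and mast cells. The 4 eGFP mice of week 7 had 21.1, 24.05, 17.7 and 20.3 CPM and the LRG1 mice 5.60, 6.04, 4.69 and 5.13 CPM, a narrow spread on either side (log2 fold change -1.95, SE 0.32, adjusted p = 3.73e-04). At week 10 it was at 30.7, 8.88, 27.4 and 11.6 CPM in eGFP mice and at 4.93, 6.73, 4.13 and 3.37 CPM in LRG1 mice (log2 fold change -2.03, SE 0.32, adjusted p = 0.00143). At this week eGFP mice 1 and 3 were well above eGFP mice 2 and 4, and all 4 lay above the LRG1 mice. The same eGFP mice 1 and 3 were the high ones in the summed level of 15 macrophage markers (6751 and 7062 CPM, beside 3032 and 4174 CPM in eGFP mice 2 and 4) and of 8 mast cell markers (416 and 461 CPM, beside 54.6 and 115 CPM). Their part in the result was not tested, and without these 2 libraries the log2 fold change at week 10 was -1.10 (adjusted p = 0.00904).

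Btla encodes an inhibitory receptor that is abundant on B cells as well as T cells. Its level at week 7 was 5.03, 7.50, 4.89 and 5.48 CPM in eGFP mice and 2.43, 5.08, 2.71 and 3.01 CPM in LRG1 mice, overlapping through LRG1 mouse 2 (log2 fold change -0.79, SE 0.48, adjusted p = 0.226). At week 10 it was at 5.52, 9.92, 12.1 and 18.1 CPM in eGFP mice and at 19.3, 5.86, 4.39 and 3.05 CPM in LRG1 mice (log2 fold change -0.49, SE 0.46, adjusted p = 0.483). The highest mouse of each group, eGFP mouse 4 and LRG1 mouse 1, was also the highest of its group in the summed level of 12 markers of B cells and lymph node, at 64.7 and 58.3 CPM. Without these 2 libraries, chosen likewise after seeing the data, the log2 fold change of Btla was -1.04 (adjusted p = 0.0336), which did not pass.

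Icos encodes a costimulatory receptor of activated T cells, related to CD28. The eGFP mice of week 7 had 3.70, 2.14, 1.86 and 4.14 CPM and the LRG1 mice 0.493, 0.878, 0.504 and 0.500 CPM, without overlap (log2 fold change -2.31, SE 0.38, adjusted p = 4.18e-04). At week 10 the groups overlapped, at 1.21, 1.70, 0.520 and 1.37 CPM and at 0.594, 0.663, 1.01 and 0.324 CPM (log2 fold change -0.89, SE 0.38, adjusted p = 0.103). The eGFP mouse at 0.520 CPM was the one that lay within the range of the LRG1 mice.

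Tox encodes a nuclear protein that sets the programme of exhausted T cells. At week 7 it was at 17.3, 10.5, 7.60 and 15.4 CPM in eGFP mice (538 to 1091 counts) and at 0.271, 0.675, 0.260 and 0.362 CPM in LRG1 mice (16 to 40 counts). Its log2 fold change was -5.01 (SE 0.32, adjusted p = 5.77e-08), with 0.163% of all genes below it. At week 10 Tox was at 2.24, 2.74, 2.47 and 3.69 CPM in eGFP mice and at 0.839, 0.815, 0.833 and 0.847 CPM in LRG1 mice. The LRG1 mice were close to one another and all below the eGFP mice (log2 fold change -1.74, SE 0.29, adjusted p = 0.00168).

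Cd274 encodes PD-L1, the broadly displayed ligand of PD-1. At week 7 it was at 32.0, 18.97, 19.1 and 27.8 CPM in eGFP mice and at 9.53, 10.4, 8.84 and 10.2 CPM in LRG1 mice, without overlap (log2 fold change -1.33, SE 0.21, adjusted p = 2.93e-04). At week 10 it was at 18.1, 10.5, 22.3 and 14.9 CPM in eGFP mice and at 11.8, 8.39, 7.81 and 8.52 CPM in LRG1 mice. Only eGFP mouse 2 reached into the range of the LRG1 mice, and the log2 fold change of -0.84 (SE 0.21, adjusted p = 0.011) narrowly missed the threshold. DESeq2, the tool of the study, gave -0.85 with an adjusted p of 0.00116, which passed, while without eGFP mice 1 and 3 of week 10 the log2 fold change was -0.48 (adjusted p = 0.229).

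Pdcd1lg2 encodes PD-L2, the ligand of PD-1 on dendritic cells and macrophages, and was the lowest member by level. At week 7 it was at 0.712, 0.528, 0.381 and 0.942 CPM in eGFP mice (27 to 59 counts) and at 0.0318, 0.0844, 0.0325 and 0.241 CPM in LRG1 mice (2 to 14 counts). The groups did not overlap (log2 fold change -2.71, SE 0.58, adjusted p = 0.00253), but without LRG1 mouse 3 the adjusted p was 0.0111. At week 10 the groups overlapped, at 0.118 to 0.403 CPM and 0.0568 to 0.280 CPM (log2 fold change -0.67, SE 0.57, adjusted p = 0.422).

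**Figure D2:**
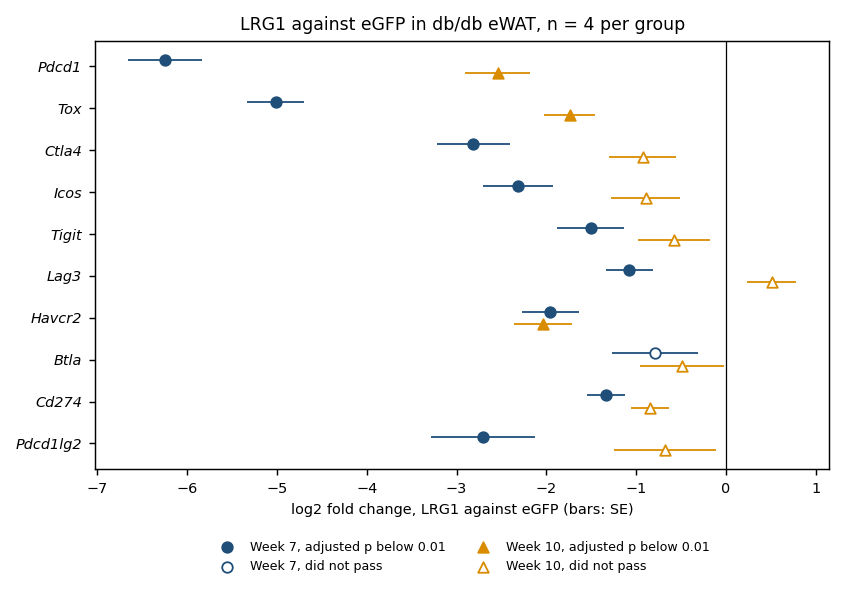
Log2 fold change of LRG1 against eGFP for each gene with its SE (bars), circles for week 7 and triangles for week 10, filled where the adjusted p was below 0.01. Pdcd1 and Tox lie farthest to the left at week 7, at -6.25 and -5.01, Havcr2 is at nearly the same place at both weeks, and Lag3 at week 10 is the only point above 0.

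The size of the LRG1 effect differed between the weeks for 2 of the 10 genes, Pdcd1 and Tox, whose log2 fold change at week 10 lay 3.70 (SE 0.55, adjusted p = 0.00279) and 3.27 (SE 0.42, adjusted p = 7.43e-04) above that at week 7. Of all genes, 0.307% were called in this direction. For Lag3 the difference was 1.59 (SE 0.38, adjusted p = 0.0613), for Ctla4 1.89 (SE 0.55, adjusted p = 0.142), for Icos 1.42 (SE 0.54, adjusted p = 0.346) and for Pdcd1lg2 2.03 (SE 0.81, adjusted p = 0.396), and none of these passed. Havcr2 had nearly equal fold changes at both weeks, with a difference of -0.08 (SE 0.44, adjusted p = 0.983). Without eGFP mice 1 and 3 of week 10 this difference was 0.86 (adjusted p = 0.0626), which did not pass. With limma-voom in place of edgeR, neither Pdcd1 (3.49, adjusted p = 0.0828) nor Tox (3.31, adjusted p = 0.0236) passed. Without LRG1 mouse 2 or 3 of week 10, in turn, Pdcd1 missed the threshold, with an adjusted p of at most 0.0117.

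Within the eGFP group, 3 genes were lower at week 10 than at week 7, Pdcd1, Tox and Lag3, beside 1.51% of all genes. These comparisons use the same eGFP libraries of week 7 as the comparison of the viruses at that week, so the values are set side by side and not taken as separate evidence. Pdcd1 was lower by 2.44 on the log2 scale (SE 0.31, adjusted p = 3.52e-04), at 10.2 ± 3.18 CPM (SD, n = 4) at week 7 and 1.89 ± 0.430 CPM at week 10. Tox was lower by 2.18 (SE 0.27, adjusted p = 2.37e-04), at 12.7 ± 4.44 CPM and 2.78 ± 0.639 CPM. Lag3 was lower by 1.81 (SE 0.27, adjusted p = 9.87e-04), at 3.45 ± 0.917 CPM and 0.970 ± 0.310 CPM. Tigit (-1.51, SE 0.38, adjusted p = 0.0264) and Icos (-1.29, SE 0.37, adjusted p = 0.0497) did not pass, although all of their week 10 libraries lay below all week 7 libraries. In all, 5 members had no such overlap, beside 6.89% of all genes. The median log2 fold change of the 10 members was -1.27, beside -0.009 over all genes. It was -1.30 over the 18 T cell genes, of which 3 were called lower and 15 had an unadjusted p under 0.05 with edgeR. Over the 13 cytotoxic and natural killer genes it was -1.27, with 3 called lower, so the fall was not particular to the members. Havcr2 was at 20.8 ± 2.60 CPM and 19.6 ± 10.99 CPM at the 2 weeks (log2 fold change -0.08, adjusted p = 0.92), with the wide spread of week 10 described above. Without eGFP mice 1 and 3 of week 10, Havcr2 (-1.02, adjusted p = 0.00267) and Cd274 (-0.94, adjusted p = 0.00635) were lower at week 10 as well, which made 5 members in place of 3. The same removal raised the share of all genes called lower from 1.51% to 5.24%, and all genes called in either direction from 446 to 2209.

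Within the LRG1 group none of the 10 genes passed between week 7 and week 10 with edgeR, with DESeq2 or with limma-voom, and 4 had an unadjusted p under 0.05 with edgeR (2 of all genes were called, 0.00961%). Those 4 had higher means at week 10. Pdcd1 was at 0.131 ± 0.0434 CPM at week 7 and 0.320 ± 0.191 CPM at week 10 (log2 fold change 1.27, SE 0.46, adjusted p = 0.478). Ctla4 (1.43, SE 0.41, adjusted p = 0.338), Btla (1.30, SE 0.48, adjusted p = 0.487) and Tox (1.09, SE 0.32, adjusted p = 0.354) were the others. Tox was the only member whose groups did not overlap here, all week 10 libraries lying above all week 7 libraries, as in 3.64% of all genes.

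Per length of transcript, in RPKM (counts scaled by the deposited gene length and the library size), the order of the genes differed between the groups. In the eGFP mice of week 7 Havcr2 (7.64 ± 0.957 RPKM, SD, n = 4), Cd274 (6.76 ± 1.80 RPKM) and Pdcd1 (5.28 ± 1.65 RPKM) led, with ranges that overlapped each other and lay above all the rest. Btla, Tox, Lag3 and Tigit followed at 1.51 to 1.69 RPKM with overlapping ranges, then Icos, Ctla4 and Pdcd1lg2 at 0.863, 0.593 and 0.327 RPKM. In the LRG1 mice of week 7 Cd274 (2.69 ± 0.193 RPKM) and Havcr2 (1.97 ± 0.214 RPKM) led and were separate from each other and from Btla (0.975 ± 0.354 RPKM), and Pdcd1 stood at rank 8 with 0.0681 ± 0.0225 RPKM. At week 10 Pdcd1 was at rank 4 in eGFP mice (0.980 ± 0.223 RPKM) and again at rank 8 in LRG1 mice (0.166 ± 0.0990 RPKM), while Pdcd1lg2 was last in all 4 groups.

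In whole tissue, fewer cells of a type and less RNA per cell cannot be told apart, and the genes that mark T cells moved along with the members. Of 18 genes of the T cell receptor complex, coreceptors and T lineage, 16 were lower in the LRG1 group at week 7 and 2 did not pass (10.7% of all genes called lower), with a median log2 fold change of -2.82. Their summed level was 67.8 to 127 CPM in eGFP mice and 11.1 to 30.9 CPM in LRG1 mice. At week 10, 5 were lower and 13 did not pass (5.24% of all genes called lower), with summed levels of 32.7 to 54.6 CPM and 15.9 to 29.7 CPM. The median log2 fold change at week 10 was -1.16. Without eGFP mice 1 and 3 of that week the median was -1.40, and none of the 18 was called by edgeR (14 at an unadjusted p under 0.05). Of all genes, 0.338% were then called lower, in place of 5.24%. Cd3g and Cd4, a subunit of the receptor complex and the coreceptor of helper T cells, were at -4.55 (SE 0.65) and -2.29 (SE 0.29) at week 7, both called. Zap70, the kinase that relays the receptor signal, was at -3.54 (SE 0.38). The part of these markers in the differences of the members was not tested.

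As a description, each member was set against the sum of Cd3e, Cd3d and Cd3g, which encode the invariant chains of the T cell receptor complex, as counts per 100 CD3 counts of the same library. These sums were 931 to 1515 counts in eGFP and 19 to 140 counts in LRG1 mice at week 7, and 247 to 394 and 65 to 178 counts at week 10, so the LRG1 ratios are imprecise. Pdcd1 was at 57.9, 47.6, 48.7 and 47.8 counts per 100 CD3 counts in eGFP mice and at 20.4, 5.71, 52.6 and 10.3 in LRG1 mice at week 7. Of the LRG1 mice, 3 lay below all eGFP mice, and the other, mouse 3, had 19 CD3 counts in all. At week 10 Pdcd1 was at 25.3, 35.6, 36.4 and 31.2 per 100 CD3 counts in eGFP mice and at 11.01, 33.8, 16.9 and 9.23 in LRG1 mice, where again 3 of 4 lay below. Tox overlapped at both weeks, with 55.1 to 72.6 and 28.6 to 84.2 per 100 CD3 counts at week 7, and 38.5 to 55.6 and 28.7 to 72.3 at week 10.

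Since CD3 counts were lower in the LRG1 mice, 97.6% of all genes lay wholly higher per CD3 count in them at week 7, and 0.0816% wholly lower. Against that background, 7 members lay wholly higher at week 7, and Pdcd1, Tox and Pdcd1lg2 overlapped. At week 10, when 75.8% of all genes lay wholly higher, Lag3 was the only member to do so, at 8.50 to 25.4 per 100 CD3 counts in eGFP mice and 56.7 to 117 in LRG1 mice. The other 9 overlapped, among them Havcr2 at 175 to 582 and 142 to 480.

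**Figure D3:**
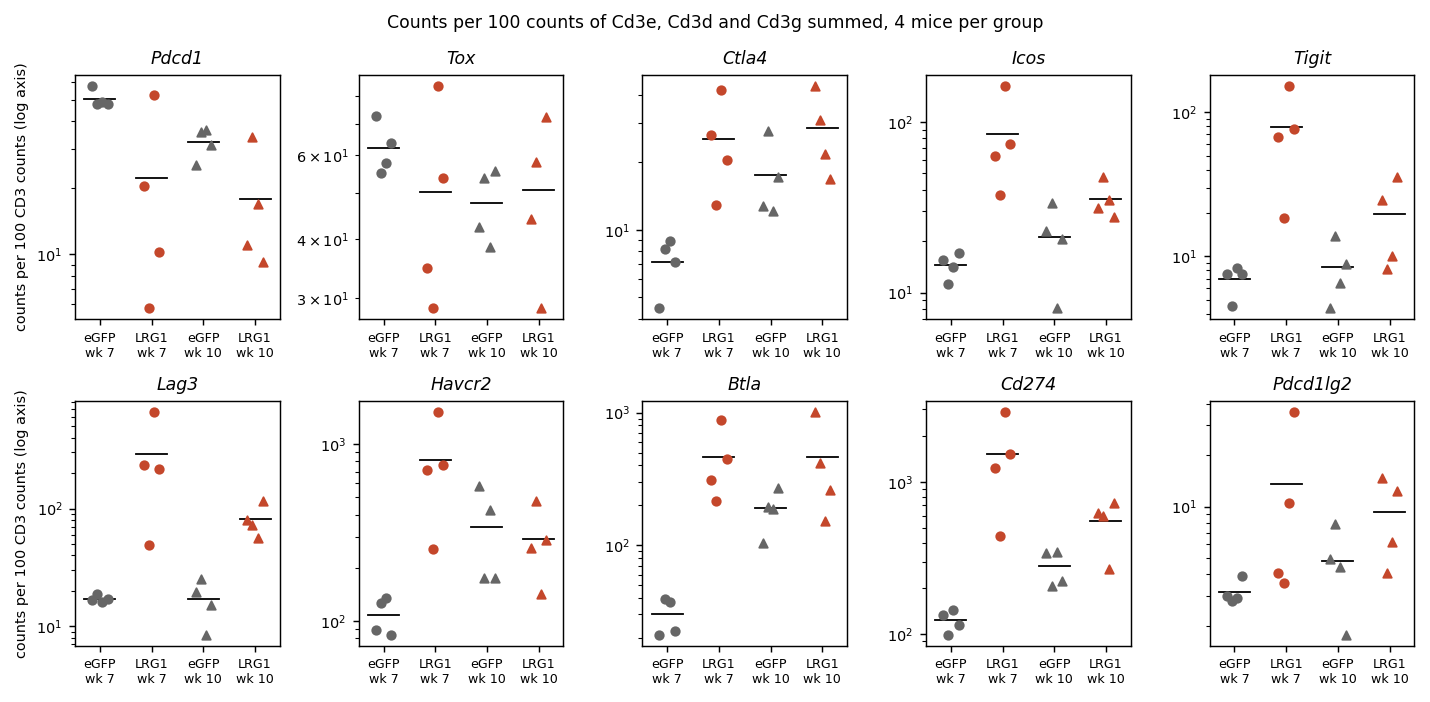
Counts of each gene per 100 counts of Cd3e, Cd3d and Cd3g summed, in every library (log axis), with circles for week 7, triangles for week 10, grey for eGFP, red for LRG1 and a line at the group mean. Pdcd1 is lower in 3 of 4 LRG1 mice at each week, Tox overlaps at both weeks, and Lag3 is higher in all LRG1 mice at both weeks.

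The genes around the members, and the markers of other cell types, were taken as lists. Their counts stand beside 10.7% of all genes called lower and 7.37% called higher at week 7. At week 10 these shares were 5.24% and 3.66%. Of 17 other costimulatory and coinhibitory receptors of T cells, 11 were lower at week 7 and 6 did not pass, with a median log2 fold change of -1.69. Tnfrsf9, which encodes the costimulatory receptor 4-1BB, was at -3.41 (SE 0.31), and Cd96, an inhibitory relative of TIGIT, at -3.08 (SE 0.39). Cd28, the main costimulatory receptor of naive T cells, was at -2.34 (SE 0.25) and Cd27, a costimulatory receptor of the TNF receptor family, at -2.19 (SE 0.27). At week 10, 4 of the 17 were lower (median -0.62), the collagen receptor Lair1 at -1.92 (SE 0.27), Cd200r1 at -1.91 (SE 0.34), Vsir, which encodes VISTA, at -0.63 (SE 0.13) and Cd28 at -1.06 (SE 0.25), of which the first 3 are also carried by myeloid cells.

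Among 14 other ligands and binding partners of the receptors the picture was mixed, with 4 lower at week 7, 10 that did not pass and a median log2 fold change of -0.14. Tnfrsf14, the ligand of BTLA, was at -1.72 (SE 0.17), and Cd86, a ligand of CTLA-4 and CD28, at -1.28 (SE 0.13). The galectin genes Lgals3 and Lgals9 were at -1.33 (SE 0.31) and -0.39 (SE 0.08). Cd80, the other ligand of CTLA-4, was at -0.62 (SE 0.20, adjusted p = 0.0276) and did not pass. At week 10, Lgals3 (-1.49, SE 0.31) and Tnfrsf14 (-0.78, SE 0.17) were the 2 lower ones (median -0.10), and Cd86 was at -0.11 (SE 0.13, adjusted p = 0.56). The change of the LRG1 effect between the weeks was tested for Cd86 too, at 1.17 (SE 0.18, adjusted p = 0.00337). In eGFP mice Cd86 was 1.11 lower on the log2 scale at week 10 than at week 7 (SE 0.13, adjusted p = 1.36e-04), at 25.8 ± 4.13 CPM and 11.9 ± 1.22 CPM.

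Of 18 transcription factors of exhausted, memory and effector T cells other than Tox, 9 were lower at week 7, 9 did not pass, and the median log2 fold change was -0.91. Eomes, a T-box factor of effector and exhausted cells, was at -2.29 (SE 0.27), Batf, an AP-1 family factor, at -2.01 (SE 0.25), Prdm1, which encodes BLIMP-1, at -1.66 (SE 0.18) and Id2 at -1.19 (SE 0.12). At week 10, Batf (-1.49, SE 0.25), Eomes (-1.57, SE 0.27) and Id2 (-0.58, SE 0.12) were lower and 15 did not pass (median -0.26).

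Of 13 genes of cytotoxic lymphocytes and natural killer cells, 9 were lower at week 7, with a median log2 fold change of -2.42, and 1 at week 10, the chemokine Ccl5 at -1.55 (SE 0.31), with a median of -0.46. Of interferon-gamma and the factors between it and its targets, 9 of 11 were lower at week 7 (median -0.87) and 1 at week 10, Irf8 at -0.81 (SE 0.15), with a median of -0.30. Ifng itself was at -5.37 (SE 0.68) at week 7. Irf1, a transcription factor induced by interferon-gamma, was at -1.76 (SE 0.18) at week 7. Of 7 tested genes of regulatory T cells (8 listed), 3 were lower at week 7 and 1 higher (median -0.68), and 2 were lower at week 10 (median -0.28). Foxp3, the factor that defines these cells, was at -1.61 (SE 0.23) and -1.17 (SE 0.23) at the 2 weeks, both called. Il2ra, which encodes the alpha chain of the interleukin-2 receptor, was the higher one at week 7, at 1.03 (SE 0.18, adjusted p = 5.62e-04), and did not pass at week 10 (0.65, SE 0.18, adjusted p = 0.0165). Il1rl1, which encodes the interleukin-33 receptor, was at 0.01 (SE 0.28) at week 7, which did not pass, and at -1.27 (SE 0.29), called, at week 10. Its week 10 level was spread widely in eGFP mice, from 11.5 to 36.0 CPM, beside 8.75 to 10.3 CPM in LRG1 mice. Which cells it came from was not tested.

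Other cell types that carry members were measured by their own markers. Of 15 macrophage markers 12 were lower at week 7 and 11 at week 10, with medians of -1.31 and -0.84 and summed levels at week 7 of 4517 to 5760 CPM in eGFP and 2146 to 2439 CPM in LRG1 mice. At week 10 the sums were 3032 to 7062 CPM and 2084 to 2709 CPM. Of 10 dendritic cell markers 5 were lower and 1 higher at week 7, and 2 lower and 1 higher at week 10 (medians -0.83 and -0.23). Of 8 mast cell markers none passed with edgeR, DESeq2 or limma-voom at week 7 (1 at an unadjusted p under 0.05 with edgeR). Their summed level was then 50.6 to 85.2 CPM in eGFP mice and 33.7 to 42.8 CPM in LRG1 mice, without overlap. Without eGFP mice 1 and 3 of week 10 in the fit, 3 of the 8 were called lower at week 7, beside 14.1% of all genes. All 8 were lower at week 10, with a median of -3.29, but 1 alone with limma-voom. Their summed level was then 54.6 to 461 CPM in eGFP mice, with mice 1 and 3 the high ones, and 32.5 to 38.9 CPM in LRG1 mice. Without eGFP mice 1 and 3 of week 10, 3 of the 8 mast cell markers were lower at that week (median -1.42) and 4 of the 15 macrophage markers (median -0.76), beside 0.338% of all genes. Of the 12 B cell and lymph node markers 10 were tested and none passed with edgeR, DESeq2 or limma-voom at either week (0 at an unadjusted p under 0.05 with edgeR), with medians of -0.45 and -0.86. The lymph node chemokine Ccl21a was at 0 in all 16 libraries. Of 5 tested genes of innate lymphoid cells (8 listed) 1, Il7r, was lower at each week, with medians of -1.02 and -0.59. Of 10 adipocyte genes, 2 were higher at each week and 8 did not pass, with medians of 0.69 and 0.50, beside 7.37% and 3.66% of all genes called higher. With edgeR, 9 had an unadjusted p under 0.05 at week 7 and 6 at week 10. Their summed level at week 7 was 11899 to 12595 CPM in eGFP mice and 15865 to 19737 CPM in LRG1 mice. Without eGFP mice 1 and 3 of week 10, 9 were called higher at week 7, beside 13.1% of all genes. At week 10, 1 was then higher, beside 0.398% of all genes, and the median was 0.08. The same removal left 1 of the 17 receptors, 1 of the 18 transcription factors and 1 of the 13 cytotoxic genes called at week 10 with edgeR. It left none called of the 14 ligands, 7 regulatory T cell, 11 interferon-gamma, 10 dendritic, 10 B cell and 5 innate lymphoid genes, of which 3, 4, 5, 4, 3 and 3, in that order, had an unadjusted p under 0.05. Over all genes the removal cut those called at week 10 from 5.24% to 0.338% lower and from 3.66% to 0.398% higher. The counts of the lists are to be read beside these shares.

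The members differed in which markers they followed from mouse to mouse. Over the 16 libraries, after the mean of each group was subtracted from log2 CPM, Havcr2 had a Pearson r of 0.956 with the summed macrophage markers, 0.899 with the dendritic and 0.876 with the mast cell markers, and -0.04 with the T cell markers. With the regulatory T cell markers its r was 0.690, and with the adipocyte markers -0.850. The dendritic sum rests mostly on Clec10a and Itgax, with means of 225 and 111 CPM of a mean sum of 371 CPM in the eGFP mice of week 7. Btla had an r of 0.969 with the B cell markers. Tox had its highest r with the cytotoxic (0.824) and T cell markers (0.783), and Ctla4 with the B cell (0.687) and T cell markers (0.652). Cd274 was highest with mast cell (0.719) and macrophage markers (0.626), and Pdcd1 reached 0.346 with the T cell markers. These values describe 16 libraries that share depth and scaling between the genes correlated. Among the eGFP mice of week 10, mice 1 and 3 were the high ones in Havcr2 and Cd274 and in the macrophage and mast cell sums, as given above. They were also high in the dendritic sum, at 477 and 465 CPM, beside 204 and 248 CPM in mice 2 and 4. In the adipocyte sum they were the low ones, at 8128 and 9861 CPM, beside 17104 and 16685 CPM in mice 2 and 4. The part of mice 1 and 3 in these r values was not tested.

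**Figure D4:**
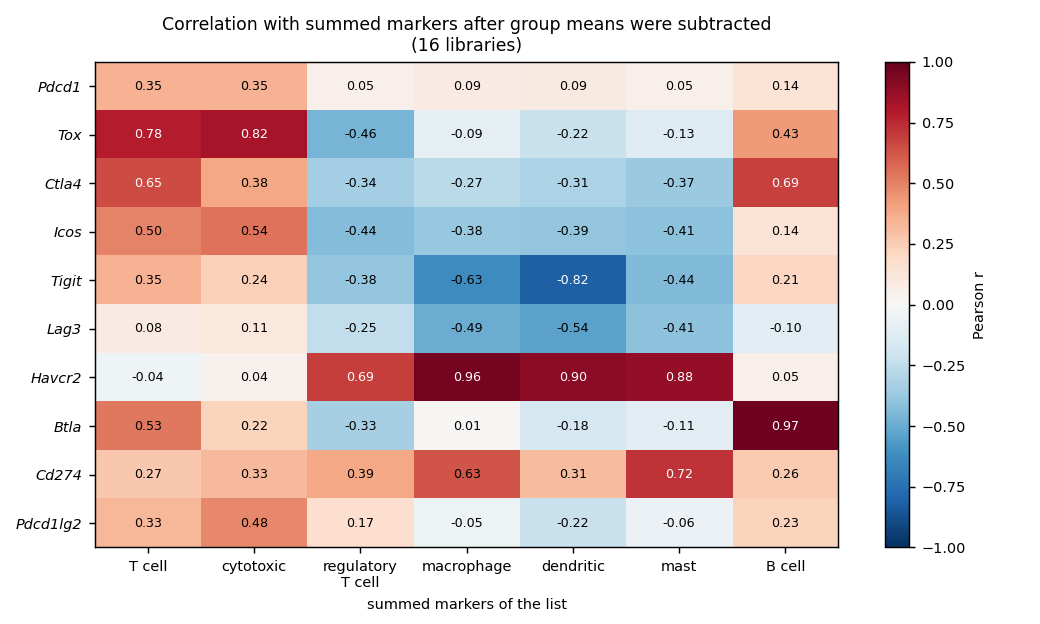
Pearson r between each gene (rows) and the summed level of each marker list (columns) over 16 libraries after group means were subtracted from log2 CPM, printed in each cell and coloured from -1 (blue) to 1 (red). Havcr2 stands out in the macrophage, dendritic and mast cell columns, Btla in the B cell column and Tox in the T cell and cytotoxic columns. Among the eGFP mice of week 10, mice 1 and 3 were high in Havcr2 and in the macrophage, dendritic and mast cell sums. They were low in the adipocyte sum, which is not a column here. The dendritic sum rests mostly on Clec10a and Itgax.

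The genes most like each member over all 16 libraries, by Pearson r of log2 CPM with group differences included, were of different kinds. For Pdcd1 they were Gbp6 (r = 0.984), Psmb9 (0.981) and Igtp (0.979), all known as genes induced by interferon-gamma, and for Tox H2-Q7 (0.992), Psmb8 (0.992) and H2-Q6 (0.987), which encode MHC class I proteins and an immunoproteasome subunit. After group means were subtracted these r fell to between 0.567 and 0.654 for Pdcd1 and between 0.787 and 0.820 for Tox. For Havcr2 they were the myeloid genes Fcer1g (0.994), Spi1 (0.994) and Lmo2 (0.992), which kept an r of 0.969 or more after subtraction. For Btla they included the B cell genes Cd79b (0.960) and Blk (0.945), with 0.960 and 0.953 after subtraction.

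For Ctla4 the most like genes were Slamf6 (0.963), Cytip (0.942) and Grap2 (0.941), all known from lymphocytes, and for Icos Ifih1 (0.948), Hyal5 (0.941) and Nmi (0.926). Cd274 was most like Igf2bp3 (0.968), Itga4 (0.968) and Bcl2l11 (0.962), and Pdcd1lg2 most like Ifng (0.910), Isg15 (0.897) and Serpina3h (0.885). Lag3 and Tigit had no gene as close, with Pkmyt1 (0.896), Smg5 (0.891) and Nr4a2 (0.878) for Lag3 and Diras2 (0.862), Dusp2 (0.847) and Dnaaf3 (0.834) for Tigit. Pdcd1 and Tox had an r of 0.964 with each other, which fell to 0.235 after group means were subtracted. H2-Q6 and H2-Q7 are near-identical copies in a region where C57BLKS differs from the reference strain, so their counts are uncertain.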

How the data were processed

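Total RNA of eWAT was sequenced. The authors trimmed reads with Cutadapt, aligned them to mm10 (GRCm38) with STAR and counted them with featureCounts, and versions, strand and multi-mapping settings were not given in the sources used here. The deposited table holds raw counts per gene, without normalization, and the length of each gene. Of 55573 Ensembl identifiers 55394 were matched to a symbol. Depth was 45376227 to 67539937 counts per library, so a gene at few counts, such as Pdcd1 in LRG1 mice, is imprecise.

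Tests used the quasi-likelihood method of edgeR 4.0.16 in R 4.3.3 on the 20822 genes kept by filterByExpr (TMM factors 0.847 to 1.10), in 1 fit of 16 libraries with a coefficient for each of 4 groups. The coefficient of biological variation was 0.203. P-values were adjusted over all 20822 genes (Benjamini-Hochberg) and called below 0.01, the threshold of the study, and each SE is the absolute log2 fold change divided by the root of its F statistic. The study used DESeq2, an alternative here (DESeq2 1.42.0, and limma-voom with limma 3.58.1). Correlations used log2 CPM with a prior count of 2. Other alternatives were the 8 libraries of a comparison alone, other scalings and filters, removal of mitochondrial genes, an adjusted p below 0.05, the replicate number as a block, and leaving out each library. Leaving out 2 libraries at once was added after seeing the data.

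The members and the 14 gene lists were chosen with earlier results of these data known. All members were named, of each list at most 4 called genes of the smallest adjusted p, for each member the 3 genes with the highest r, and Lrg1, Cd3e, Cd3d, Cd3g, Cd8a, Cd4, Foxp3, Ifng, Irf1, Cd28, Cd80 and Cd86 in any case, without clone names and receptor segments. Of the genes this rule names, 2 are not reported here. Ccl21a, Clec10a and Itgax were named after their values were seen. The scripts were tested on simulated data. Samples are separate mice by their labels, and p-values measure the spread between them. Mice of the same number in different groups did not deviate together (24 pairs, median r -0.0126, from -0.200 to 0.142), and no 2 libraries of a group were duplicates (r of log counts 0.963 to 0.987). No protein sequences were at hand.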

Additional observations from a re-analysis of the deposited data

Results flagged for a closer look

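Of 40 groups of 4 values (10 genes in 4 groups), 1 held a value far from the rest by Dixon's test, which chance alone gives in about 1 of 20 groups. It was Icos in the LRG1 mice of week 7, where mouse 2 was at 0.878 CPM and the others at 0.493 to 0.504 CPM. The LRG1 effect differed between the weeks, by the test of that difference, for Pdcd1 (3.70 on the log2 scale) and for Tox (3.27), as described above.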

How the results depend on the processing

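Over all alternatives, 1378 fold changes of members kept their direction and their side of the threshold, 26 lost the call, 12 gained it and 12 changed sign. The changes of sign were in differences that the main test put at -0.08 to 0.30 and did not call, though some alternatives lay farther from 0. The change of the LRG1 effect for Havcr2 was 0.0833 with limma-voom, 0.0938 with library size scaling, 0.86 without eGFP mice 1 and 3 of week 10, and -0.32 to 0.22 when 1 library was left out. For Btla it was -0.27 without eGFP mouse 4 and LRG1 mouse 1 of week 10, and -0.59 to 0.62 when 1 library was left out. Havcr2 between the weeks in eGFP mice was 0.10 without those same 2 libraries, and -0.39 to 0.16 when 1 was left out, and Icos between the weeks in LRG1 mice was -0.17 to 0.38. The cause was not tested.

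At week 10 a fit of only the 8 libraries called 0 members lower, in place of 3, with an adjusted p of 0.0306 for Pdcd1, 0.0366 for Havcr2 and 0.0106 for Tox, and 12 genes in all in place of 1854. For the change of the effect, limma-voom called 0 members and the replicate block 1 in place of 2. Between the weeks in eGFP mice, a threshold of 0.05 gave 5 members lower in place of 3, and so did leaving out eGFP mice 1 and 3 of week 10. Leaving out 1 library gave 7 to 9 members lower at week 7, 3 to 4 at week 10, 1 to 2 with a changed effect and 3 in eGFP mice over time. Tox at week 10 had an adjusted p of 0.0117 with limma-voom, and Lag3 in eGFP mice over time 0.0177 with 8 libraries. DESeq2 also called Lag3 for the change of the effect (0.00301) and Tigit in eGFP mice over time (0.00222), and library size scaling and the absence of a filter called Cd274 at week 10 (0.00899 and 0.00613).

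The replicate block, which does not pair mice here, ended the week 7 calls of Lag3 (0.0131) and Tigit (0.0124) and the changed effect of Pdcd1 (0.0162), and no other call of a member. It called 1174 genes at week 10, 35 for the change of the effect, 258 in eGFP and 0 in LRG1 mice over time.

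Library size scaling moved the median log2 fold change of all genes to -0.15 at week 7, and called 3636 genes lower and 341 higher there in place of 2221 and 1534, 1136 and 320 at week 10 in place of 1092 and 762, and 476 and 91 in eGFP mice over time in place of 315 and 131. Upper quartile scaling moved the week 7 split the other way, to 1957 lower and 1993 higher. No scaling changed the number of members called at week 7. All genes called were 5727 with 8 libraries at week 7 (3755 by the main test), 3565 with DESeq2 at week 10, 274 with DESeq2, 122 with library size scaling and 104 without a filter for the change of the effect (68), 1079 with DESeq2 and 109 with 8 libraries in eGFP mice over time (446), and 55 and 11 in LRG1 mice (2). With 1 library left out they were 2239 to 4412 at week 7, 284 to 3647 at week 10, 40 to 92 for the change of the effect, 180 to 479 in eGFP and 0 to 4 in LRG1 mice. A threshold of 0.05 gave 6555, 4761, 196, 1220 and 10. Pdcd1 (4 to 30 counts per library) and Pdcd1lg2 (2 to 16) had the fewest counts in LRG1 mice.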
